A study of Homo sapiens with 24 samples.

Results

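The Hedgehog pathway genes described here are the ligands IHH, SHH and DHH, the receptors PTCH1 and HHIP, the transducer SMO and the transcription factors GLI1, GLI2 and GLI3. They were chosen by name, and a probe was counted for a gene when the RefSeq transcript that the scanner output gives for it belongs to that gene. All 9 genes, of 20503 genes with a symbol on the array, had at least 1 probe, 13 probes in all, and 7 of the 9 could be tested.

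Hedgehog ligands are secreted proteins that bind the membrane receptor PTCH1. In the absence of ligand, PTCH1 keeps SMO inactive and GLI proteins are cut into repressors or degraded, whereas bound ligand frees SMO and lets GLI proteins activate transcription, with GLI1 and PTCH1 among their own targets. In the liver the pathway is known for its activity during development and repair, where ligands from epithelial cells act on progenitors and on cells that make matrix.

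The study asked which genes of HepaRG cells, a human liver progenitor line that the labels describe as derived from a hepatocellular carcinoma, respond to the Wnt ligand Wnt3a, and which of these responses need β-catenin or are blocked by a decoy receptor. RNA of 24 cultures was labelled with Cy3 and hybridised to 1-colour Agilent arrays, 3 independent cultures for each of 8 conditions. Untransfected cells, cells given 80 pmol of a control siRNA, cells given 80 pmol of a β-catenin (CTNNB1) siRNA, and untransfected cells given mouse FZD8_CRD at 300 ng/ml, the part of a Frizzled receptor that binds Wnt proteins, were each kept for 72 h without or with mouse Wnt3a at 200 ng/ml. The stimulations were done in serum-free medium with albumin. Transfected cells were also detached and electroporated, so the siRNA itself and the electroporation cannot be told apart when they are set against untransfected cells, and a single β-catenin siRNA was used.

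Each value below is the log2 of a probe's processed signal over the 75th percentile of its array, so that 0 is the 75th percentile and 1 unit is a 2-fold difference, and values of 3 cultures are given in the order of replicates 1, 2 and 3. Signals under a floor of -6.13, which is 1.43% of the 75th percentile, were set to it. Between 58.3% and 66.5% of the spots of an array were well above background. A gene was called when limma's moderated test over all 24 arrays gave a Benjamini-Hochberg adjusted p under 0.05 (two-sided) among the 24648 genes tested, and only called genes are said to rise or fall. The replicate number is also the slide, each slide holds all 8 conditions, and each condition kept its place on all 3 slides, so a place on the slide and a condition cannot be told apart.

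CTNNB1, the target of the siRNA, was low in every culture labelled as having received it. The log2 signal was 0.26, 0.35 and 0.52 after the β-catenin siRNA and 0.33, 0.52 and 0.77 after the siRNA with Wnt3a. After the control siRNA it was 3.35, 3.37 and 3.51 without and 3.39, 3.62 and 3.67 with Wnt3a. In untransfected cultures it was 3.28, 3.27 and 3.57 without and 3.40, 3.31 and 3.47 with Wnt3a, and with FZD8_CRD it was 3.22, 3.38 and 4.11 without and 3.54, 3.98 and 3.89 with Wnt3a. No array of the silenced cultures reached any other array. Against the control siRNA CTNNB1 changed by -3.03 without Wnt3a (adjusted p 1.17e-09) and by -3.02 with Wnt3a (adjusted p 7.76e-10), on 3 of 3 slides in each case.

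Feedback genes of Wnt signalling served as a check on Wnt3a. RNF43, a membrane protein that removes Frizzled receptors, rose by 0.73 in untransfected cells (adjusted p 0.00054) and by 1.02 after the control siRNA (adjusted p 9.77e-05). LEF1, a DNA-binding partner of β-catenin, rose by 1.12 and 0.61 in the same settings (adjusted p 0.000392 and 0.0406). AXIN2, a scaffold of the complex that degrades β-catenin, rose by 0.37 without transfection (adjusted p 0.0453), which turned to -0.03 when arrays were scaled to spike-in RNA, and by 0.60 after the control siRNA (adjusted p 0.00662). That scaling moves all genes of a comparison alike, so the rises of RNF43 and LEF1 in untransfected cells are smaller under it too. In silenced cells none of RNF43, LEF1 and AXIN2 was called, and the Wnt3a response of RNF43 differed between the siRNAs by -1.23 (adjusted p 0.0013). With FZD8_CRD present RNF43 still rose by 0.81 (adjusted p 0.000217), and LEF1 changed by 0.17 and AXIN2 by 0.13 (adjusted p 0.627 and 0.58). Against untransfected cells FZD8_CRD lowered RNF43 (-1.30 without and -1.23 with Wnt3a, adjusted p 9.2e-08 and 2.3e-07) and AXIN2 (-0.60 and -0.84, adjusted p 0.000118 and 6.69e-06). Without Wnt3a it raised LEF1 by 1.00 (adjusted p 3.24e-05), and with Wnt3a its level differed from that of untransfected cells by 0.05 (adjusted p 0.839). NKD1, an inhibitor induced by Wnt signals, was well above background on 3 of 3 arrays of the control siRNA with Wnt3a, on 1 of 3 arrays of untransfected cells with Wnt3a, and on 0 arrays of the other conditions.

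IHH (NM_002181), PTCH1 (NM_001083602), SMO (NM_005631), GLI1 (NM_005269), GLI2 (NM_005270) and GLI3 (NM_000168) had a probe well above background on all 24 arrays. SHH (NM_000193) was well above background on 21 arrays, whereas DHH (NM_021044) reached this level on 2 arrays and HHIP (NM_022475) on 1, so that DHH and HHIP were not tested. The condition means of IHH spanned 2.03 log2 units, a range at the 96.3rd percentile among the genes tested. GLI2 spanned 1.60 (percentile 92.6), GLI1 1.08 (81.6), SHH 0.98 (77.6), PTCH1 0.87 (71.8), GLI3 0.66 (55.4) and SMO 0.47 (33.3).

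**Figure D1:**
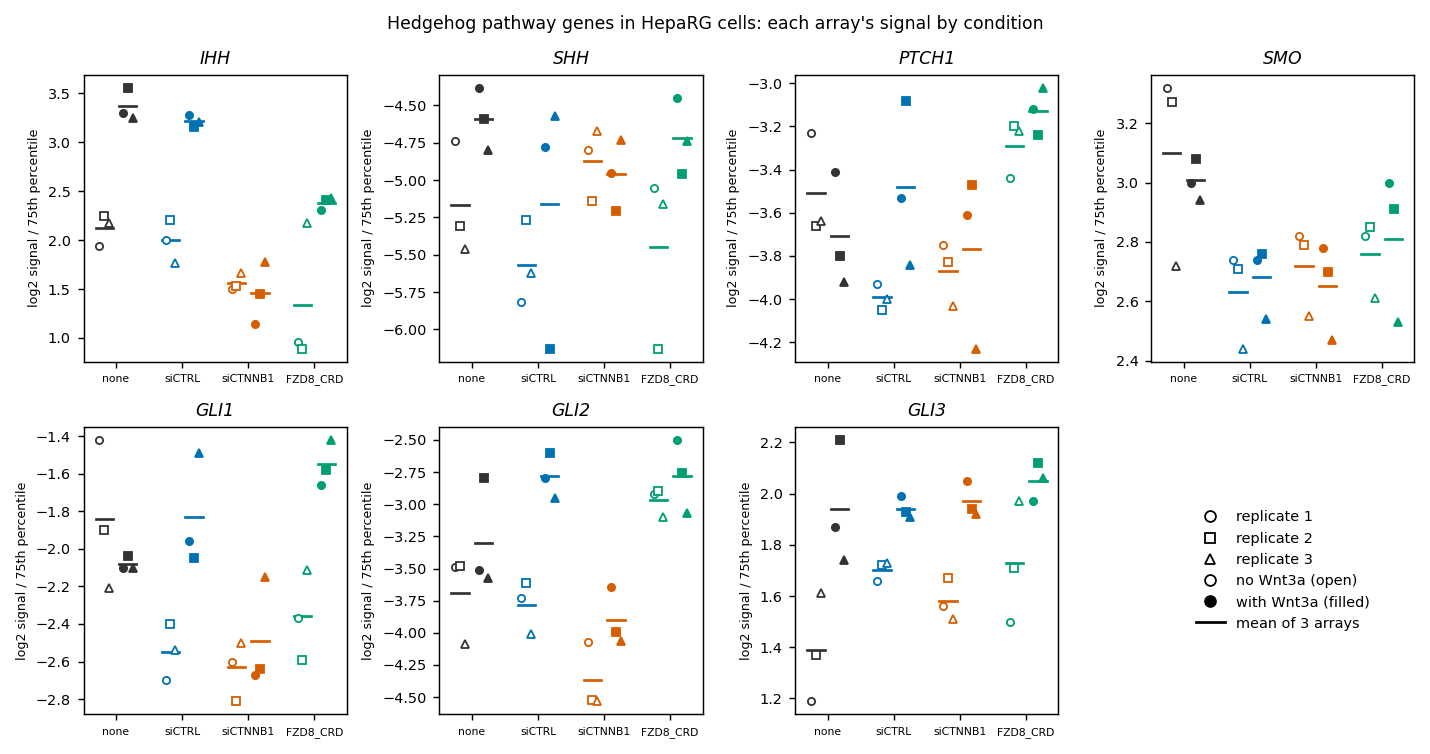
Log2 of signal over the array's 75th percentile (y axis, a scale of its own for each gene) of the 7 tested Hedgehog pathway genes on all 24 arrays, by treatment (x axis, open without and filled with Wnt3a), with symbols for replicates and a line at the mean of 3. IHH with Wnt3a lies between 3.16 and 3.56 in untransfected and control siRNA cultures and between 1.14 and 1.78 after the β-catenin siRNA.

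Promoter sequences are shown for IHH and GLI2, which β-catenin silencing lowered with Wnt3a present, and for the classical pathway target PTCH1. They are windows in which letters bound by TCF/LEF or GLI proteins could be looked for. For GLI2 and PTCH1 only the window with a match is printed. GLI1, lowered in that comparison too, had no promoter to show. RefSeq promoters of GRCh38.p14 (the 250 bases before each annotated start) matched 7 of the 9 genes by symbol, all but GLI1 and GLI3, with 12 starts. The letters CTTTGA, the core read by TCF/LEF proteins (TCAAAG on the other strand), occur in 3937 of 35116 such windows, 11.2%, and the letters TGGGTGGTC, read by GLI proteins (GACCACCCA on the other strand), in 70, 0.199%. Of the 12 windows, 1 of GLI2 (chr2:120792031-120792280, plus strand) holds TCAAAG with its first base 149 bases before the start, and 1 of PTCH1 (chr9:95509267-95509516, minus strand) holds TGGGTGGTC 172 bases before the start. The window of IHH (chr2:219060922-219061171, minus strand) holds neither, which says only that these letters are not in it, and a match is a description and not a bound site. No window held both motifs, so they do not overlap. The capitals mark the matches, and each sequence runs 5′ to 3′.
IHH: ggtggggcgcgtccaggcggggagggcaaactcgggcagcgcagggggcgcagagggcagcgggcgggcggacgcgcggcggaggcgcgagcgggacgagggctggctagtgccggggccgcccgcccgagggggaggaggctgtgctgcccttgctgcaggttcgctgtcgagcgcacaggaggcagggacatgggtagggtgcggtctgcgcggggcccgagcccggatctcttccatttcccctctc
GLI2: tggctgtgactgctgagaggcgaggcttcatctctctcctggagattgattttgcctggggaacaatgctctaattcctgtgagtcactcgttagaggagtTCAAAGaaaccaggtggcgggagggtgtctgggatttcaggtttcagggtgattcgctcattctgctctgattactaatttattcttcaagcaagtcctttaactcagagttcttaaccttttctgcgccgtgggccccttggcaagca
PTCH1: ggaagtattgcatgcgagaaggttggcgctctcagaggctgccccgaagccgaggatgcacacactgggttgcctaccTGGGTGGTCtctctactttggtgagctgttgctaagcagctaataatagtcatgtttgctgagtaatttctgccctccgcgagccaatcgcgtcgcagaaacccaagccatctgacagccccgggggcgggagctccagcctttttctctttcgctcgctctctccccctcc

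Wnt3a raised 2 of the 7 tested genes in untransfected cells, IHH and GLI3, where 5.6% of all genes were called. The count fell to 1 without untransfected replicate 1, without untransfected replicate 2 or without untransfected Wnt3a replicate 2. Shares of all genes in fits with an array left out are not given here or below, so such counts cannot be set against all genes. After the control siRNA Wnt3a also raised 2 of 7, IHH and GLI2, beside 2.11% of all genes, and 0 were left without control siRNA replicate 3 and 1 without control siRNA replicate 1 or any of the 3 control siRNA arrays with Wnt3a. In cells given the β-catenin siRNA limma called 0 of 7, beside 0.0406% of all genes, and 2 (GLI2 and GLI3) had an unadjusted p under 0.05, as had 10.4% of all genes. With FZD8_CRD Wnt3a raised 2 of 7, IHH and GLI1, beside 8.29% of all genes, with 0 left without FZD8_CRD replicate 1 or 2, 1 without FZD8_CRD Wnt3a replicate 3, and 3 (GLI3 added) without FZD8_CRD replicate 3.

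The control siRNA against no transfection lowered 2 of 7, GLI1 and SMO, without Wnt3a, beside 22.3% of all genes. This count became 0 without untransfected replicate 1, 1 without untransfected replicate 2 or control siRNA replicate 1 or 3, 3 (GLI3 added) without untransfected replicate 3, and 4 with the slide as a block, which added GLI3 and PTCH1 and called 32.1% of all genes. With Wnt3a present limma called 0 of 7 for the control siRNA, beside 9.04%, while 2 (GLI2 and SMO) had an unadjusted p under 0.05, as had 22.9% of all genes, and these 2 were called with the slide as a block, beside 15.2%. Without untransfected Wnt3a replicate 2 the count was 1 (GLI2).

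Against the control siRNA, the β-catenin siRNA changed 0 of 7 by limma without Wnt3a, beside 10.6% of all genes, with 1 (GLI2) at an unadjusted p under 0.05, as were 22.7% of all genes, and called with the slide as a block, beside 16.6%. With Wnt3a it lowered 3 of 7, IHH, GLI2 and GLI1, beside 10.6% of all genes, with 2 left (IHH and GLI2) without β-catenin siRNA Wnt3a replicate 1 or 2 or control siRNA Wnt3a replicate 3, and 1 (IHH) without the arrays of replicate 2. FZD8_CRD lowered IHH and GLI1 and raised GLI2 and GLI3 without Wnt3a, 4 of 7 beside 41.9% of all genes, with 2 left without FZD8_CRD replicate 1 or untransfected replicate 1 or 2 and 1 without FZD8_CRD replicate 2. With Wnt3a, FZD8_CRD lowered IHH and raised GLI1 and PTCH1, 3 of 7 beside 37.2% of all genes, with 1 left without untransfected Wnt3a replicate 3 and 5 with the slide as a block, which called 48.5% of all genes. With so many genes called under FZD8_CRD, a call there says little about a single pathway.

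The test of whether 2 Wnt3a responses differ called few genes of any kind. Between the β-catenin and the control siRNA limma called 0 of 7, beside 0.0162% of all genes, and 2 (IHH and GLI1) had an unadjusted p under 0.05, as had 3.33% of all genes. Between FZD8_CRD and none it called 0 of 7, beside 0.073%, with 1 (GLI1) under an unadjusted p of 0.05 beside 12.7% of all genes, and GLI1 was called without FZD8_CRD replicate 3 or without untransfected replicate 3. Between the control siRNA and no transfection it called 0 of 7, beside 0%, with 2 (GLI1 and PTCH1) under an unadjusted p of 0.05 beside 4.8% of all genes. The 4 Wnt3a comparisons and the siRNA and FZD8_CRD comparisons share arrays, so their values are given side by side and not correlated.

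The median change of the 7 genes was 0.39, 0.51, 0.10 and 0.32 for Wnt3a in untransfected, control siRNA, β-catenin siRNA and FZD8_CRD cultures, against 0.01, 0.02, 0.03 and 0.02 over all genes. For the β-catenin siRNA against the control siRNA it was -0.08 without and -0.29 with Wnt3a, against -0.03 and -0.01 over all genes. For FZD8_CRD it was -0.28 without and 0.11 with Wnt3a, against -0.09 and -0.08, and for the control siRNA against no transfection -0.40 and 0.01, against -0.03 and -0.02.

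**Figure D2:**
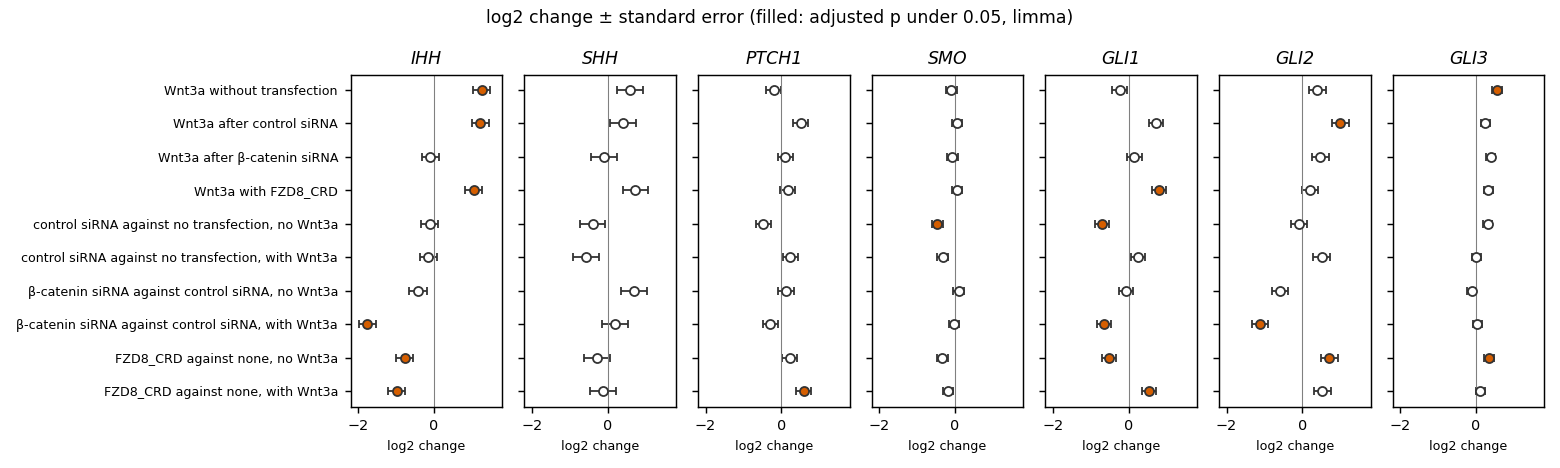
Log2 change with its standard error (x axis) of the 7 tested Hedgehog pathway genes in 10 comparisons (y axis), filled where limma's adjusted p was under 0.05. IHH lies at 1.25, 1.22 and 1.04 for Wnt3a in untransfected, control siRNA and FZD8_CRD cultures and at -0.10 after the β-catenin siRNA, and the GLI3 value for FZD8_CRD without Wnt3a, 0.34, turned to -0.05 when arrays were scaled to spike-in RNA.

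IHH, a ligand best known from cartilage and gut, was called for Wnt3a in 3 of 4 settings and for the β-catenin siRNA where Wnt3a was present. The study followed IHH among genes it picked on these same arrays, so its direction here is not independent evidence. In untransfected cultures its log2 signal was 1.94, 2.25 and 2.18 without and 3.30, 3.56 and 3.25 with Wnt3a. After the control siRNA it was 2.00, 2.21 and 1.77 without and 3.28, 3.16 and 3.21 with Wnt3a. In both settings every Wnt3a array lay above every array without it. Silenced cells gave 1.5, 1.53 and 1.66 without and 1.14, 1.45 and 1.78 with Wnt3a. With FZD8_CRD it was 0.96, 0.89 and 2.18 without and 2.31, 2.41 and 2.43 with Wnt3a. The silenced cultures overlapped each other, and without Wnt3a they stayed below every control siRNA array, while the highest silenced array with Wnt3a (1.78) just passed the lowest control siRNA array without it (1.77). In addition, FZD8_CRD replicate 3 without Wnt3a stood well above the other 2 arrays of its condition.

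From lowest to highest mean, IHH ran from FZD8_CRD at 1.34 ± 0.72 (SD, n = 3), the β-catenin siRNA with Wnt3a at 1.46 ± 0.32 and the β-catenin siRNA at 1.56 ± 0.08, over the control siRNA at 2.00 ± 0.22 and untransfected cells at 2.12 ± 0.16, to FZD8_CRD with Wnt3a at 2.38 ± 0.06, the control siRNA with Wnt3a at 3.22 ± 0.06 and untransfected cells with Wnt3a at 3.37 ± 0.17. The first 3 overlapped as neighbours, as did the control siRNA with untransfected cells, and the last pair. No overlap was seen between the β-catenin siRNA and the control siRNA, between untransfected cells and FZD8_CRD with Wnt3a, or between the latter and the control siRNA with Wnt3a.

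Wnt3a raised IHH by 1.25 (SE 0.23, 2.38-fold) in untransfected cells, with an adjusted p of 0.00471 and differences within slides 1, 2 and 3 of 1.36, 1.32 and 1.07. After the control siRNA the rise was 1.22 (SE 0.23, 2.33-fold), with an adjusted p of 0.009 and within-slide differences of 1.28, 0.95 and 1.43. Its call there was lost without control siRNA replicate 3 (1.11, adjusted p 0.0665), and over all alternatives the adjusted p ran from 0.00332 to 0.299 after the control siRNA and from 0.000213 to 0.395 in untransfected cells. After the β-catenin siRNA the change was -0.10 (SE 0.23, 95% interval -0.58 to 0.37, adjusted p 0.976), lower on 2 of 3 slides and 0.05 without β-catenin siRNA Wnt3a replicate 1. The difference in the response to Wnt3a between the β-catenin and the control siRNA was -1.32 (95% interval -2 to -0.65), negative on 3 of 3 slides at -1.64, -1.02 and -1.31, with an unadjusted p of 0.000576 that did not pass adjustment (adjusted p 0.367). IHH was called for this difference in 3 alternatives, with only the conditions compared in the fit, with the study's thresholds and without replicate 3, and in none of the others.

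With Wnt3a present, the β-catenin siRNA lowered IHH against the control siRNA: the change was -1.76 (SE 0.23), to 0.296 of the control level, with an adjusted p of 3.24e-05 and within-slide differences of -2.14, -1.70 and -1.42. This call held in all 21 alternatives run for it, with values from -1.96 to -1.56 and adjusted p from 3.17e-06 to 0.0206. Where Wnt3a was absent the difference was -0.43 (SE 0.23, adjusted p 0.281), below 0 on 3 of 3 slides with no overlap between the groups. It was called when the arrays of replicate 3 were left out.

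FZD8_CRD lowered IHH with Wnt3a present, a change of -0.99 (SE 0.23, adjusted p 0.00199, range 9e-05 to 0.0518), with within-slide differences of -0.99, -1.15 and -0.82 and no overlap. Without Wnt3a the change was -0.78 (SE 0.23, adjusted p 0.00948), with within-slide differences of -0.98, -1.36 and 0, and the groups overlapped through FZD8_CRD replicate 3. Without that array the change was -1.20 (adjusted p 6.05e-06), while the call was lost without FZD8_CRD replicate 1 (-0.59, adjusted p 0.0625) or replicate 2 (-0.55, adjusted p 0.0749), and over all alternatives the adjusted p ran up to 0.273. The same array had the highest spike-in signal over the 75th percentile of the 24 (3.23, lowest 2.19) and the lowest mean correlation with the other arrays of its condition (0.9872), and the part of these in the result was not tested.

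Despite FZD8_CRD, Wnt3a raised IHH by 1.04 (SE 0.23, adjusted p 0.00844), higher on 3 of 3 slides at 1.35, 1.52 and 0.25. Without FZD8_CRD replicate 1 the change was 0.85 (adjusted p 0.0859), without replicate 2 it was 0.82 (adjusted p 0.0871), and without replicate 3 it was 1.46 (adjusted p 1.01e-06), in a range of adjusted p from 1.01e-06 to 0.511 over all alternatives. The difference between this response and that of untransfected cells was -0.21 (95% interval -0.88 to 0.47, adjusted p 0.914), so a block of the IHH response by FZD8_CRD was not detectable with these arrays although the level with Wnt3a was lower. The control siRNA itself left IHH within -0.12 and -0.15 of untransfected cells (adjusted p 0.767 and 0.775), without and with Wnt3a.

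**Figure D3:**
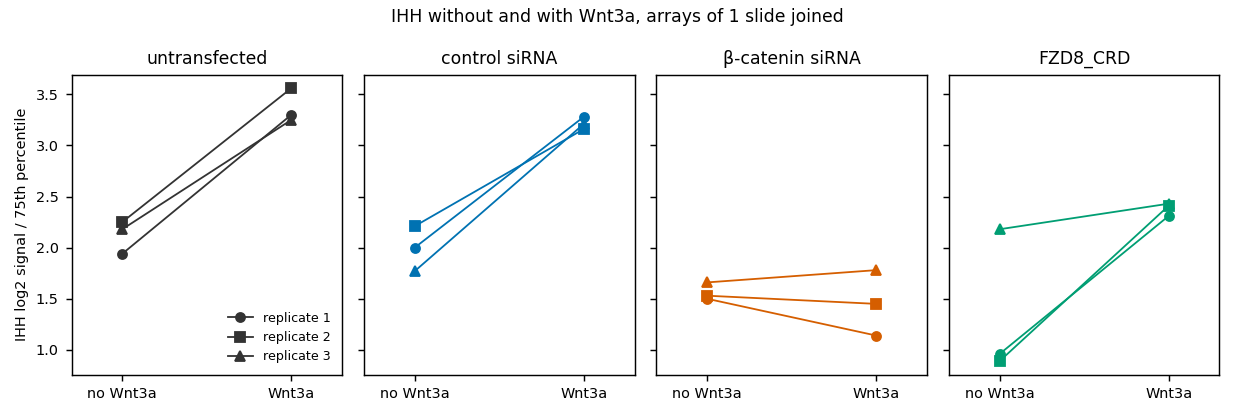
IHH on the same log2 scale (y axis) without and with Wnt3a (x axis) in 4 settings, each line joining the pair of arrays of a slide. Lines climb by 0.95 to 1.43 in the untransfected and control siRNA panels, change by -0.36, -0.08 and 0.12 after the β-catenin siRNA, and climb by 1.35, 1.52 and 0.25 with FZD8_CRD.

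SHH, the ligand best known from the nervous system and limb, was measured near the floor. Its log2 signal was -4.74, -5.31 and -5.46 in untransfected cells, -5.82, -5.27 and -5.62 after the control siRNA, -4.80, -5.14 and -4.67 after the β-catenin siRNA and -5.05, -6.13 and -5.16 with FZD8_CRD. With Wnt3a the same settings gave -4.38, -4.59 and -4.80, then -4.78, -6.13 and -4.57, then -4.95, -5.21 and -4.73, and -4.45, -4.96 and -4.74. All 3 arrays were well above background in 5 conditions and 2 of 3 in the control siRNA, the control siRNA with Wnt3a and FZD8_CRD, and every pair of neighbours in the order of means overlapped, from -5.57 ± 0.28 (SD) after the control siRNA to -4.59 ± 0.21 in untransfected cells with Wnt3a. SHH was called in 0 of 13 comparisons. Its changes with Wnt3a were 0.58, 0.41, -0.10 and 0.73 in untransfected, control siRNA, β-catenin siRNA and FZD8_CRD cultures (adjusted p 0.365, 0.739, 0.994 and 0.227, unadjusted p 0.0448 in the last). DHH, the ligand known from gonads and nerve sheaths, was at the floor on 21 of 24 arrays, with -5.30 on control siRNA Wnt3a replicate 1 and -5.75 on FZD8_CRD replicate 2 as the only arrays well above background.

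PTCH1, the Hedgehog receptor and a target of GLI proteins, was dim but measured on every array. On the log2 scale it was at -3.23, -3.66 and -3.64 in untransfected cells without and -3.41, -3.80 and -3.92 with Wnt3a, and -3.93, -4.05 and -4.00 after the control siRNA without and -3.53, -3.08 and -3.84 with Wnt3a. Silenced cells gave -3.75, -3.83 and -4.03 without and -3.61, -3.47 and -4.23 with Wnt3a, and with FZD8_CRD -3.44, -3.20 and -3.22 without and -3.12, -3.24 and -3.02 with Wnt3a. The FZD8_CRD arrays with Wnt3a all lay above the untransfected arrays with Wnt3a, and every pair of neighbours in the order of means, from -3.99 ± 0.06 (SD) after the control siRNA to -3.13 ± 0.11 with FZD8_CRD and Wnt3a, overlapped. FZD8_CRD raised PTCH1 with Wnt3a present by 0.59 (SE 0.20, adjusted p 0.0289), with within-slide differences of 0.29, 0.57 and 0.90, its only call. The call was lost without FZD8_CRD Wnt3a replicate 1 (0.58, adjusted p 0.067) or 3 (0.53, adjusted p 0.0883) and without untransfected Wnt3a replicate 2 (0.54, adjusted p 0.0754) or 3 (0.48, adjusted p 0.106), in a range from 0.00449 to 0.367. A second PTCH1 probe, kept and well above background on 18 arrays, changed by 0.03 in that comparison and was called in 0 of 13. Wnt3a changed PTCH1 by -0.20, 0.51, 0.10 and 0.16 in untransfected, control siRNA, β-catenin siRNA and FZD8_CRD cultures, none of them called (adjusted p 0.674, 0.231, 0.965 and 0.776). With the slide as a block its -0.48 for the control siRNA without Wnt3a was called (adjusted p 0.05), against 0.0985 without the block.

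HHIP, which binds Hedgehog ligands and limits their range, was at the floor on 24 of 24 arrays and marked well above background on 1 of them.

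SMO, the membrane protein that PTCH1 restrains, moved least. Its log2 signal was 3.32, 3.27 and 2.72 in untransfected cells without and 3.00, 3.08 and 2.94 with Wnt3a, and 2.74, 2.71 and 2.44 after the control siRNA without and 2.74, 2.76 and 2.54 with Wnt3a. After the β-catenin siRNA it was 2.82, 2.79 and 2.55 without and 2.78, 2.70 and 2.47 with Wnt3a, and with FZD8_CRD 2.82, 2.85 and 2.61 without and 3.00, 2.91 and 2.53 with Wnt3a. Replicate 3 was the lowest array in all 8 conditions, and neighbours in the order of means, from 2.63 ± 0.17 (SD) after the control siRNA to 3.10 ± 0.33 in untransfected cells, overlapped throughout. The control siRNA lowered SMO without Wnt3a, a change of -0.47 (SE 0.14, adjusted p 0.0226), with within-slide differences of -0.58, -0.55 and -0.28 and overlapping groups. That call was lost without untransfected replicate 1 (-0.36, adjusted p 0.139) or 2 (-0.39, adjusted p 0.0999) or control siRNA replicate 3 (-0.38, adjusted p 0.114), in a range from 0.000167 to 0.271. With the slide as a block SMO was also called for the control siRNA with Wnt3a (-0.33, adjusted p 0.00638 against 0.176), and for FZD8_CRD without (-0.34, adjusted p 0.000646 against 0.061) and with Wnt3a (-0.19, adjusted p 0.0343 against 0.319), below 0 on 3 of 3 slides in each. Wnt3a changed it by -0.10, 0.05, -0.07 and 0.05, none called.

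GLI1, an activator whose transcript is a common readout of the pathway, changed in opposite directions in different settings. Its log2 signal was -1.42, -1.90 and -2.21 in untransfected cells without and -2.10, -2.04 and -2.10 with Wnt3a, and -2.70, -2.40 and -2.54 after the control siRNA without and -1.96, -2.05 and -1.49 with Wnt3a. After the β-catenin siRNA it was -2.60, -2.81 and -2.50 without and -2.67, -2.64 and -2.15 with Wnt3a, and with FZD8_CRD -2.37, -2.59 and -2.11 without and -1.66, -1.58 and -1.42 with Wnt3a. Wnt3a arrays lay above those without it in the control siRNA and FZD8_CRD settings and overlapped them in the untransfected and β-catenin siRNA settings. In the order of means, from -2.63 ± 0.16 (SD) after the β-catenin siRNA to -1.55 ± 0.12 with FZD8_CRD and Wnt3a, the only neighbours without overlap were FZD8_CRD and untransfected cells with Wnt3a.

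Wnt3a raised GLI1 with FZD8_CRD by 0.80 (SE 0.19, adjusted p 0.0126), higher on 3 of 3 slides at 0.71, 1.01 and 0.69. Its call was lost without FZD8_CRD replicate 1 (0.80, adjusted p 0.0727) or 2 (0.69, adjusted p 0.108) or FZD8_CRD Wnt3a replicate 3 (0.74, adjusted p 0.0554), in a range from 0.00276 to 0.473. After the control siRNA the change was 0.72 (SE 0.19, adjusted p 0.0536), higher on 3 of 3 slides and called with the slide as a block (adjusted p 0.0303), and in untransfected cells it was -0.24 (adjusted p 0.554), lower on 2 of 3 slides. The difference between the response with FZD8_CRD and that of untransfected cells was 1.04 (95% interval 0.48 to 1.6, unadjusted p 0.000944), positive on 3 of 3 slides, without passing adjustment (adjusted p 0.114). The corresponding difference for the control siRNA was 0.96 (unadjusted p 0.00199, adjusted p 0.945), and that between the β-catenin and the control siRNA was -0.57 (unadjusted p 0.0454, adjusted p 1).

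Without Wnt3a the control siRNA lowered GLI1, a change of -0.71 (SE 0.19, adjusted p 0.0103), with within-slide differences of -1.29, -0.50 and -0.33. Without untransfected replicate 1, the highest of its condition, the change was -0.50 (adjusted p 0.0901), and without control siRNA replicate 1 it was -0.63 (adjusted p 0.0514), in a range from 0.00214 to 0.389. The β-catenin siRNA lowered GLI1 with Wnt3a, a change of -0.66 (SE 0.19, adjusted p 0.0292), with within-slide differences of -0.71, -0.59 and -0.67, against -0.08 without Wnt3a. This call was lost without β-catenin siRNA Wnt3a replicate 1 (-0.56, adjusted p 0.116) or 2 (-0.58, adjusted p 0.126) or control siRNA Wnt3a replicate 3 (-0.48, adjusted p 0.169), in a range from 0.0142 to 0.254.

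FZD8_CRD lowered GLI1 without Wnt3a, a change of -0.52 (SE 0.19, adjusted p 0.0345), and raised it with Wnt3a by 0.53 (SE 0.19, adjusted p 0.0343). Within slides the change without Wnt3a was -0.96, -0.69 and 0.10, with overlapping groups, and the change with Wnt3a was 0.44, 0.46 and 0.68, with no overlap. Without untransfected replicate 1 the first became -0.30 (adjusted p 0.235), and its call was also lost without untransfected replicate 2 (-0.54, adjusted p 0.056), FZD8_CRD replicate 1 (-0.51, adjusted p 0.0719) or replicate 2 (-0.40, adjusted p 0.153), in a range from 0.00151 to 0.41. Quantile normalization (-0.37, adjusted p 0.133) and the deposited values (-0.37, adjusted p 0.114) ended this call as well. The other call was lost without untransfected Wnt3a replicate 1 (0.52, adjusted p 0.0867), 2 (0.55, adjusted p 0.054) or 3 (0.52, adjusted p 0.0704) or FZD8_CRD Wnt3a replicate 2 (0.54, adjusted p 0.0673) or 3 (0.46, adjusted p 0.112), in a range from 0.00765 to 0.369.

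GLI2, the main activator at the start of a Hedgehog response, was lowest in silenced cells. The log2 signal was -3.49, -3.48 and -4.09 in untransfected cells without and -3.51, -2.80 and -3.57 with Wnt3a, and -3.73, -3.61 and -4.01 after the control siRNA without and -2.80, -2.60 and -2.95 with Wnt3a. In silenced cells it was -4.07, -4.52 and -4.53 without and -3.64, -3.99 and -4.06 with Wnt3a, and with FZD8_CRD -2.92, -2.90 and -3.10 without and -2.50, -2.76 and -3.07 with Wnt3a. All control siRNA arrays with Wnt3a lay above those without it and above all silenced arrays, and each FZD8_CRD array without Wnt3a lay above each untransfected array without it. In the order of means, from -4.37 ± 0.26 (SD) after the β-catenin siRNA to -2.78 ± 0.17 after the control siRNA with Wnt3a and -2.78 ± 0.29 with FZD8_CRD and Wnt3a, only the β-catenin siRNA without and with Wnt3a did not overlap as neighbours.

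With Wnt3a present the β-catenin siRNA lowered GLI2, a change of -1.12 (SE 0.22, adjusted p 0.00179), with within-slide differences of -0.84, -1.39 and -1.12 and values from -1.32 to -0.61 over the alternatives (adjusted p 0.000118 to 0.42). Without Wnt3a the change was -0.59 (SE 0.22, adjusted p 0.0954), below 0 on 3 of 3 slides and called with the slide as a block (adjusted p 0.0182). Wnt3a raised GLI2 after the control siRNA by 1.00 (SE 0.22, adjusted p 0.0213), with within-slide differences of 0.92, 1.01 and 1.06. This call was lost without control siRNA replicate 1 (1.03, adjusted p 0.08) or 3 (0.89, adjusted p 0.113) and without control siRNA Wnt3a replicate 1 (1.01, adjusted p 0.0543), 2 (0.91, adjusted p 0.119) or 3 (1.08, adjusted p 0.0549), in a range from 0.00314 to 0.579. In untransfected, β-catenin siRNA and FZD8_CRD cultures Wnt3a changed GLI2 by 0.39, 0.47 and 0.20 (adjusted p 0.327, 0.456 and 0.732), and the difference between the siRNAs in this response was -0.53 (95% interval -1.17 to 0.12, adjusted p 1).

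FZD8_CRD raised GLI2 without Wnt3a by 0.71 (SE 0.22, adjusted p 0.0123), with within-slide differences of 0.57, 0.59 and 0.99. Without untransfected replicate 3 the change was 0.51 (adjusted p 0.0806), in a range from 0.00128 to 0.48. With Wnt3a the change was 0.52 (adjusted p 0.0679), above 0 on 3 of 3 slides and called with the slide as a block (adjusted p 0.0134), and for the control siRNA with Wnt3a it was 0.51 (adjusted p 0.159, with the block 0.0408). GLI2 has 4 probes, of which 3 were kept, and the others did not carry these calls. A probe well above background on 23 arrays changed by 0.73 for Wnt3a after the control siRNA, by -0.74 for the β-catenin siRNA with Wnt3a and by 0.70 for FZD8_CRD without Wnt3a, and one on 24 arrays by 0.41, -0.26 and -0.40. Both were called in 0 of 13 comparisons, and the latter had the opposite sign for FZD8_CRD.

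GLI3, which acts mainly as the pathway's repressor, was called for Wnt3a in 1 of 4 settings. The log2 signal was 1.19, 1.37 and 1.61 in untransfected cells without and 1.87, 2.21 and 1.74 with Wnt3a, and 1.66, 1.72 and 1.73 after the control siRNA without and 1.99, 1.93 and 1.91 with Wnt3a. After the β-catenin siRNA it was 1.56, 1.67 and 1.51 without and 2.05, 1.94 and 1.92 with Wnt3a, and with FZD8_CRD 1.5, 1.71 and 1.97 without and 1.97, 2.12 and 2.06 with Wnt3a. The groups without and with Wnt3a did not overlap in the untransfected and both siRNA settings, and the 4 conditions without Wnt3a had the 4 lowest means, from 1.39 ± 0.21 (SD) in untransfected cells to 2.05 ± 0.07 with FZD8_CRD and Wnt3a, with overlap between all neighbours. Wnt3a raised GLI3 in untransfected cells by 0.55 (SE 0.12, adjusted p 0.0115), with within-slide differences of 0.67, 0.84 and 0.13. The call was lost without untransfected replicate 1 (0.45, adjusted p 0.0712) or 2 (0.54, adjusted p 0.0502) or untransfected Wnt3a replicate 2 (0.41, adjusted p 0.108), in a range from 0.00136 to 0.817, and with arrays scaled to spike-in RNA the value was 0.15 (adjusted p 0.643). The changes after the control siRNA, after the β-catenin siRNA and with FZD8_CRD were 0.24, 0.39 and 0.32 (adjusted p 0.374, 0.265 and 0.109), each above 0 on 3 of 3 slides. The differences of these responses were 0.15 between the siRNAs and -0.23 for FZD8_CRD (adjusted p 1 and 0.653).

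FZD8_CRD raised GLI3 without Wnt3a by 0.34 (SE 0.12, adjusted p 0.0256), with within-slide differences of 0.31, 0.34 and 0.37 and overlapping groups, but the value turned to -0.05 when arrays were scaled to spike-in RNA. The call was also lost without untransfected replicate 1 (0.24, adjusted p 0.15) or 2 (0.33, adjusted p 0.0623) or FZD8_CRD replicate 2 (0.35, adjusted p 0.0516) or 3 (0.22, adjusted p 0.155) and with quantile normalization (0.31, adjusted p 0.0501), in a range from 0.00617 to 0.884. For the control siRNA without Wnt3a its change was 0.31, called with the slide as a block (adjusted p 0.0427 against 0.0637).

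Each array was also scaled to the spike-in RNA that was added to it, in place of its 75th percentile. The median change of all genes was then -0.38 for Wnt3a in untransfected cells, 0.18 after the control siRNA, -0.10 after the β-catenin siRNA and -0.07 with FZD8_CRD. Such medians include the small ones present on the 75th percentile, so they are not the size of the move itself. The median was -0.32 and 0.25 for the control siRNA without and with Wnt3a, 0.06 and -0.22 for the β-catenin siRNA, and -0.48 and -0.17 for FZD8_CRD. Relative to these medians IHH changed by 1.24, 1.20 and 1.02 with Wnt3a in untransfected, control siRNA and FZD8_CRD cultures, by -1.74 with the β-catenin siRNA and Wnt3a, and by -0.69 and -0.91 with FZD8_CRD. GLI2 changed by 0.97 with Wnt3a after the control siRNA, by -1.10 with the β-catenin siRNA and Wnt3a and by 0.80 with FZD8_CRD. GLI1 changed by 0.79 with Wnt3a and FZD8_CRD, by -0.68 with the control siRNA, by -0.64 with the β-catenin siRNA and Wnt3a, and by -0.43 and 0.61 with FZD8_CRD without and with Wnt3a. GLI3 changed by 0.53 with Wnt3a in untransfected cells and by 0.42 with FZD8_CRD, PTCH1 by 0.67 and SMO by -0.44 in the comparisons named for them. These relative values only restate those on the 75th percentile less their medians, because the scaling moves all genes of a comparison alike. They are therefore no check on the scaling. Without taking the median off, IHH was no longer called with Wnt3a in untransfected cells (0.85, adjusted p 0.0711) and with FZD8_CRD (0.95, adjusted p 0.0618), and kept its other calls. GLI3 lost its call with Wnt3a (0.15, adjusted p 0.643) and, with its sign turned, with FZD8_CRD (-0.05, adjusted p 0.884). GLI2 lost its call with Wnt3a after the control siRNA (1.16, adjusted p 0.252) and with FZD8_CRD (0.32, adjusted p 0.48), and kept that with the β-catenin siRNA and Wnt3a (-1.32, adjusted p 0.0255). GLI1 lost its call with Wnt3a and FZD8_CRD (0.71, adjusted p 0.407), with the β-catenin siRNA and Wnt3a (-0.86, adjusted p 0.104) and with FZD8_CRD against none with Wnt3a (0.44, adjusted p 0.369). SMO with the control siRNA (-0.76, adjusted p 0.126) and PTCH1 with FZD8_CRD and Wnt3a (0.50, adjusted p 0.367) were not called either. For the differences in Wnt3a response the median with spike-in scaling was -0.28 between the siRNAs, 0.31 for FZD8_CRD and 0.56 for the control siRNA.

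Other genes of the pathway were taken from a list of 74, all of them on the array and 66 of them tested. Wnt3a raised 4 and lowered 3 of the 66 in untransfected cells (10.6% against 5.6% of all genes, median 0.08), and raised 1 and lowered 1 after the control siRNA (3.03% against 2.11%, median 0.05). It changed 0 after the β-catenin siRNA (against 0.0406%, median 0.01) and raised 4 and lowered 1 with FZD8_CRD (7.58% against 8.29%, median 0.05). The β-catenin siRNA raised 7 and lowered 5 without Wnt3a (18.2% against 10.6%, median -0.06) and raised 6 and lowered 8 with Wnt3a (21.2% against 10.6%, median -0.07). FZD8_CRD raised 19 and lowered 10 without Wnt3a (43.9% against 41.9%, median 0.11) and raised 14 and lowered 15 with Wnt3a (43.9% against 37.2%, median 0.02). The control siRNA raised 10 and lowered 7 without Wnt3a (25.8% against 22.3%, median 0.03) and raised 5 and lowered 2 with Wnt3a (10.6% against 9.04%, median 0). Several of these shares lie near those of all genes, and whether the list differs from all genes was not tested. None of the 66 was called in the 3 tests of a difference between Wnt3a responses.

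Among the 7 tested genes of ligand processing and release, HHAT, which attaches palmitate to Hedgehog ligands, was lowered by the β-catenin siRNA, with changes of -1.46 without Wnt3a (adjusted p 2.08e-06) and -1.55 with Wnt3a (adjusted p 5.02e-07), and changed by -0.02 with Wnt3a in untransfected cells. DISP1, which releases the ligands, rose by 0.28 with the β-catenin siRNA and Wnt3a (adjusted p 0.0108, but 0.08 with spike-in scaling). GPC6, a heparan sulphate proteoglycan, rose by 0.77 in that comparison (adjusted p 0.0462) and changed by -1.04 with Wnt3a in FZD8_CRD cultures (adjusted p 0.0118).

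Of the 6 tested receptors and co-receptors, the co-receptor CDON rose by 0.42 with Wnt3a in untransfected cells (adjusted p 0.0227, but 0.02 with spike-in scaling) and changed by -0.37 with the β-catenin siRNA and Wnt3a (adjusted p 0.0215). GAS1, another co-receptor, rose by 0.46 with FZD8_CRD (adjusted p 0.038, but 0.07 with spike-in scaling), and HHIPL2, named for its likeness to HHIP, by 1.38 with the control siRNA (adjusted p 0.00685), both without Wnt3a. HHIPL2 was also called with FZD8_CRD without Wnt3a (0.97, adjusted p 0.0307), but its arrays there lay at -4.86, -4.23 and -2.87, overlapping untransfected cells (-5.21 to -4.80), so that value leans on a single array. The co-receptor BOC was called in 0 comparisons.

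Of the 18 tested genes acting at the cilium and near SMO, GPR161, a ciliary receptor that holds the pathway back, was lowered by the β-catenin siRNA, with changes of -0.41 without Wnt3a (adjusted p 0.0194) and -0.46 with Wnt3a (adjusted p 0.0075) and was raised by FZD8_CRD by 0.78 (adjusted p 1.2e-05) and 0.67 (adjusted p 9.08e-05), while its 0.38 with Wnt3a in untransfected cells (adjusted p 0.0467) turned to -0.02 with spike-in scaling. The rise of GPR161 with FZD8_CRD without Wnt3a is also smaller under that scaling, which moves all genes of a comparison alike. ARRB2, an arrestin, changed by -0.65 with Wnt3a in untransfected cells (adjusted p 0.0479), and IQCE, a partner of the EVC proteins, by -0.23 with the control siRNA (adjusted p 0.00744). Among the 20 tested genes that control GLI proteins, the kinase CSNK1G1 was raised by the β-catenin siRNA by 0.59 (adjusted p 0.0017) and 0.50 (adjusted p 0.00524) without and with Wnt3a, and the ubiquitin ligase ITCH by 0.35 without Wnt3a (adjusted p 0.0352). KIF7, a kinesin of the cilium, changed by -0.58 with FZD8_CRD and Wnt3a (adjusted p 0.0106), and SUFU, which binds and restrains GLI proteins, was called in 0 comparisons.

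Of the 15 tested genes often described as GLI targets, 7 were called for the β-catenin siRNA without Wnt3a and 8 with it, where 10.6% of all genes were called in each case, and differences between the roles were not tested. IGFBP6, which binds insulin-like growth factors, was lowered, with changes of -1.73 and -2.19 (adjusted p 1.88e-06 and 3.81e-08) and rose by 0.63 with Wnt3a in FZD8_CRD cultures (adjusted p 0.0209). JAG2, a Notch ligand, was lowered, with changes of -0.56 and -1.11 (adjusted p 0.00299 and 2.27e-06) and rose by 0.62 with Wnt3a in untransfected cells (adjusted p 0.00506, and 0.22 with spike-in scaling). CCND1, cyclin D1, was raised by 0.89 and 0.71 by the same silencing (adjusted p 0.000163 and 0.00104). The 2 listed genes called for Wnt3a after the control siRNA, named after their values were seen, were the transcription factor MYCN (1.83, adjusted p 0.0201) and the steroid enzyme HSD11B2 (-0.97, adjusted p 0.0258). Likewise named after the fact, MYCN (1.37) and SNAI1 (0.76) also rose with Wnt3a in FZD8_CRD cultures. With IGFBP6 and DYRK2 (0.35), the latter listed among the genes that control GLI proteins, they were the 4 of 66 that rose there. Several of these genes are also regulated by Wnt signals, so their changes are no measure of Hedgehog activity.

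**Figure D4:**
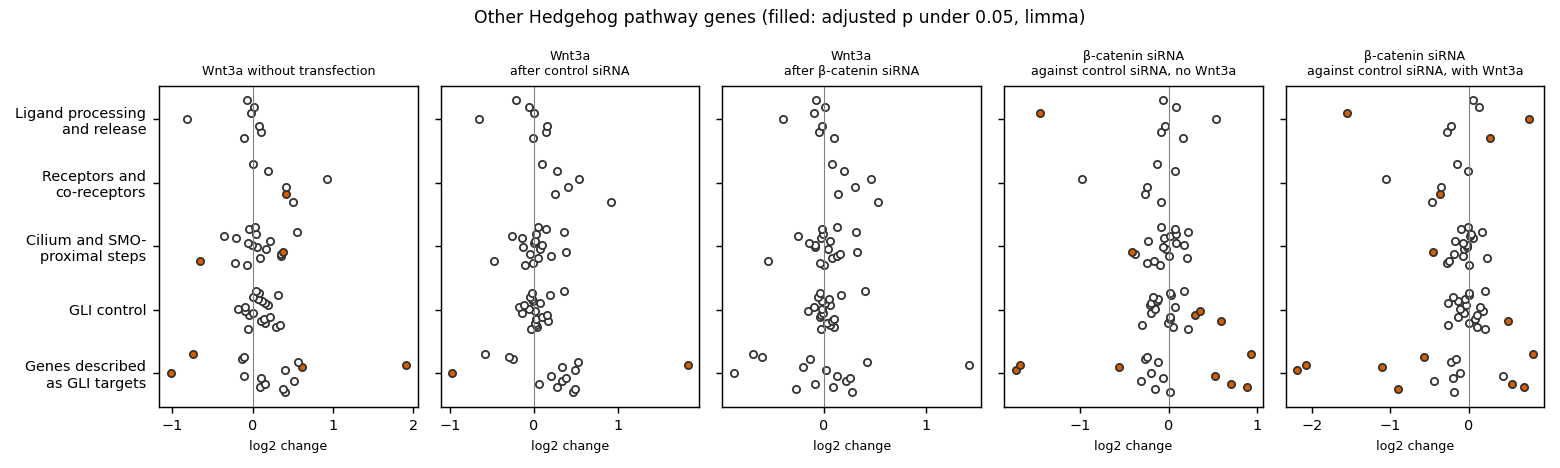
Log2 change (x axis) of the 66 tested other Hedgehog pathway genes by role (y axis) in 5 comparisons, a point for each gene, filled where limma's adjusted p was under 0.05. From the left 7, 2 and 0 points are filled for Wnt3a (5.6%, 2.11% and 0.0406% of all genes called) and 12 and 14 for the β-catenin siRNA (10.6% of all genes in each), with HHAT at -1.46 and -1.55 at the left of its role.

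Markers of cell types were read beside these values, and since fewer cells of a type and less RNA per cell cannot be told apart in such samples, they are given as levels of RNA. Of 10 hepatocyte and liver progenitor markers 9 were well above background on all arrays (EPCAM on 1), as were 3 of 6 of stellate cells and fibroblasts (THY1 on 0), 4 of 4 of endothelium and 3 of 4 of leukocytes. Many were dim. Median log2 signals were -4.97 for VWF, -4.31 for PECAM1, -3.08 for CDH5 and 1.43 for KDR. They were -3.75 for PTPRC, -5.5 for CD3E, 1.17 for CD68 and 0.93 for CD14. HNF4A (-4.31), SOX9 (-3.52) and LRAT (-5.08) were dim too. Whether cells of these types were present was not tested. Of the markers called where IHH changed, DCN, a matrix proteoglycan of fibroblasts, rose by 0.71 with Wnt3a in untransfected cells (adjusted p 0.0286) and changed by -1.80 with the β-catenin siRNA and Wnt3a (adjusted p 1.94e-06). In the latter comparison DES (-0.61), CD14 (-1.30) and SOX9 (-0.57) were also lower and ALB (1.19) higher, 5 of the 22 tested markers in all beside 10.6% of all genes, while Wnt3a after the control or the β-catenin siRNA changed 0 of 22, beside 2.11% and 0.0406% of all genes. The β-catenin siRNA without Wnt3a also lowered 5 of 22, DCN (-1.5), DES (-0.84), PDGFRB (-0.79), CD14 (-1.12) and PECAM1 (-0.94), beside 10.6% of all genes. PDGFRB lay near the floor, with a median of -6.02 and 7 arrays well above background, so the size of its change is uncertain. Wnt3a with FZD8_CRD, where IHH rose, changed 4 of 22 beside 8.29% of all genes, with AFP (0.66), APOA1 (2.22) and CD68 (0.90) higher and KDR (-0.99) lower. FZD8_CRD, with which IHH fell, changed 10 of 22 without Wnt3a, beside 41.9% of all genes, and 8 of 22 with Wnt3a, beside 37.2%. In both settings it lowered ALB (-1.81 without and -1.07 with Wnt3a), HNF4A (-1.70 and -1.22), SOX9 (-0.53 and -0.75), KDR (-1.51 and -2.06) and DCN (-1.49 and -2.35) and raised AFP (1.01 and 1.45) and KRT19 (0.36 and 0.59), of which the 0.36 turned to -0.03 with spike-in scaling. Without Wnt3a it also lowered APOA1 (-2.76), TF (-4.14) and CD68 (-1.27), and with Wnt3a LRAT (-0.81). The control siRNA without Wnt3a, with which GLI1 and SMO fell, lowered 5 of 22, ALB (-1.65), APOA1 (-2.18), HNF4A (-1), TF (-3.01) and DCN (-0.69), beside 22.3% of all genes. The part of these markers in the results for the Hedgehog genes was not tested.

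Over the 8 condition means, and as a description only, the genes most like IHH among 16000 genes with a symbol were ZNF503-AS2 (r 0.972), SH3GL1P2 (0.971), UBE2H (0.959), PCSK5 (0.956) and ZNF710 (0.951). The least like it were AKAP7 (r -0.984), PCDH20 (-0.972), NCEH1 (-0.954), ITPRID2 (-0.947) and HADH (-0.945). For GLI2 the most like were RFK (r 0.986), EVA1A (0.972), TMEM182, CFAP184 and TVP23B (each 0.971), and the least like were PPP1R12B (-0.972), GOLGA4 (-0.969), PLIN1 (-0.964), TSKU (-0.963) and COQ8A (-0.952). With 8 points and 16000 genes, high values of r arise in large numbers, and all points come from the same 24 arrays.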

How the data were processed

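The deposited scanner files of 24 one-colour Agilent arrays hold spot intensity values that were extracted by the authors with Agilent Feature Extraction (10.7.3.1 per the labels, 10.7.1.1 per the file headers), background-subtracted, with 62976 spots per array. The deposited value table, used only as an alternative, holds log2 values relative to the 75th percentile that were centred on each probe's median over the arrays, for 25443 probes. From the processed intensity, spots marked as outliers and control spots were left out, each array was divided by the 75th percentile of its 61657 other spots (642.7 to 933.8 intensity units), values under a common floor were set to it, log2 was taken and spots of 1 probe were averaged. A probe was retained if some condition had it well above background in all its 3 cultures (31067 of 50683 probes), and the retained probe with the highest mean stood for its gene (24648 genes, 41 missing values). limma (3.58.1, R 4.3.3) fitted the 8 conditions on all 24 arrays with a trended variance, and 13 comparisons were tested two-sided with Benjamini-Hochberg adjustment at 0.05. The number of arrays limits the precision. Scripts were tested on simulated data. Figures were drawn with Python 3.11.15 and matplotlib 3.10.9.

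The members and lists were chosen with earlier results of these data known. Named beside the members were the listed pathway genes called in any comparison, up to 3 per role by lowest adjusted p with Wnt3a or siRNA, core pathway genes whatever their result (among them SUFU, KIF7, BOC, CDON, GAS1, DISP1 and HHAT), CTNNB1, 4 Wnt feedback genes, markers of 4 cell classes, and the 5 genes most and least like IHH and GLI2. Alternatives were quantile normalization, normexp (offset 50) on the median spot signal, the deposited table, every probe regardless of brightness, only probes bright on each array, a floor of 1 intensity unit, the mean of a gene's probes, outlier spots kept, the slide as a block, only the conditions compared, the study's thresholds (p under 0.01 with a fold above 1.5 or below 0.7), and leaving out each replicate or array. Spike-in scaling over 7 probes and the second GLI2 probe were added after seeing the data.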

Additional observations from a re-analysis of the deposited data

Results flagged for a closer look

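The change of SHH with Wnt3a had one sign on every slide in one setting and the opposite sign, by small margins, on every slide in another. In untransfected cells it was 0.58, above 0 on 3 of 3 slides, and after the β-catenin siRNA it was -0.10, below 0 on 3 of 3 slides, and the difference between these settings was not tested. With FZD8_CRD it was 0.73, above 0 on 3 of 3 slides, against the same -0.10 after the β-catenin siRNA, a difference that was not tested either. SHH was called in none of these settings by limma, and its signal lay near the floor. Such a pattern was not particular to SHH, since PTCH1 had -0.20 with Wnt3a in untransfected cells and 0.51 after the control siRNA, each with its sign on 3 of 3 slides, and that difference was tested (0.72, unadjusted p 0.0223, adjusted p 0.992).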

How the results depend on the processing

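For the 18 called changes of members and that of IHH with Wnt3a after the β-catenin siRNA, the values under the alternatives were compared, of which 279 kept their direction and side of the threshold, 120 kept the direction without the call and 3 changed sign, while the other uncalled changes of members are not in this tally. IHH with the β-catenin siRNA and Wnt3a kept its call in all 21 alternatives. The sign changed for GLI3 with FZD8_CRD without Wnt3a (-0.05, spike-in scaling) and for IHH with Wnt3a after the β-catenin siRNA (0.02 without replicate 1, 0.05 without its Wnt3a array of replicate 1, in a range from -0.27 to 0.05).

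Counts of called members that moved by over 1.5 times were as follows, and the cause was not tested. Shares in brackets are those of all genes called in the same fit. With only the conditions compared in the fit, the counts were 0 for Wnt3a in untransfected cells (0.00811%), 0 for Wnt3a with FZD8_CRD (0%), 0 for the control siRNA (15%) and 1 for FZD8_CRD without Wnt3a (25.9%), and 1 (IHH) for the difference in Wnt3a response between the siRNAs (0.166%). With the study's thresholds they were 1 for Wnt3a in untransfected cells (4.42%), 1 for the control siRNA (10.9%) and 2 for FZD8_CRD without Wnt3a (22.4%), and 1 for each difference in Wnt3a response, between the siRNAs (0.568%), for FZD8_CRD (2.97%) and for the control siRNA (0.458%). Without a filter on dim probes they were 1 for the control siRNA (11.6%) and 2 for FZD8_CRD without Wnt3a (23%), and 1 for FZD8_CRD with Wnt3a (20.3%). With spike-in scaling they were 0 for Wnt3a in untransfected cells (1.24%), 1 after the control siRNA (0.219%) and 0 with FZD8_CRD (0.99%), 1 for the control siRNA (6.33%) and 2 for FZD8_CRD without Wnt3a (29.9%), and 1 for FZD8_CRD with Wnt3a (9.55%). For Wnt3a after the control siRNA the mean of a gene's probes gave 1 (2.01%) and the second GLI2 probe 1 (2.11%).

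Blocking on the slide gave counts of 4 and 2 for the control siRNA without (32.1%) and with Wnt3a (15.2%), 1 for the β-catenin siRNA without Wnt3a (16.6%) and 5 for FZD8_CRD with Wnt3a (48.5%). The block added 9 calls and ended none, while more genes of any kind were called too, as these shares were 22.3%, 9.04%, 10.6% and 37.2% without it. After taking off condition means, arrays sharing a number had a mean correlation of 0.38, against -0.19 for arrays with different numbers, and 82 of 84 same-numbered pairs were over 0.1. Taking off the means ties the second correlation to the first, so it is not a separate observation. Arrays of a slide were thus alike in nearly all pairs. The labels call the cultures independent, which does not remove such a likeness. The slide was kept as an alternative, and the other calls rest on a fit without it. A change uncalled there can be called with the block, as was SMO for FZD8_CRD without Wnt3a (limma adjusted p 0.061 against 0.000646).

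Leaving out a replicate number or single arrays gave counts from 0 to 3 for Wnt3a in untransfected cells, 0 to 2 after the control siRNA, 0 to 0 after the β-catenin siRNA and 0 to 3 with FZD8_CRD. The range was 0 to 3 and 0 to 1 for the control siRNA without and with Wnt3a, 0 to 1 and 1 to 3 for the β-catenin siRNA, and 0 to 4 and 0 to 2 for FZD8_CRD. For the differences in Wnt3a response it was 0 to 1 between the siRNAs, 0 to 2 for FZD8_CRD and 0 to 0 for the control siRNA. Shares of all genes called in these smaller fits are not given. A change in the calls of all genes thus cannot be told from one of the members.

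With 3 arrays a condition, most calls of single members were lost in some fit with a single array left out. In some of these fits the change was as large as in the full fit, so a lost call does not by itself mean a smaller change. SHH, DHH and HHIP lay near or at the floor, where changes are compressed and values at the floor have no order. The array measures RNA, not protein or pathway activity.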
